A study of Mus musculus with 18 samples.

Results

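The genes for cholesterol synthesis, uptake and efflux were followed in RNA sequencing of mouse testis. They are the rows of the deposited expression table whose gene symbol is on a list of 33 genes, and all 33 were found among 20979 symbols. The list holds 20 synthesis enzymes, 5 regulators of the sterol-sensing SREBP transcription factors, 4 genes that move or store cholesterol inside the cell, and 4 genes for cholesterol efflux and the nuclear receptors that control it. The 18 libraries came from 10 week old ICR mice, an outbred stock, with 3 libraries in each of 6 groups. The mice of 2 groups had no high fat diet: control, and AOS (AOS at 10 mg/kg). The other 4 groups had it: HFD with nothing added, HFD-AOS with AOS at 10 mg/kg, HFD-AOSFMT with the FMT labelled AOS10mg/kg, and HFD-conFMT with the FMT labelled control. The sources used here do not spell out AOS or FMT. The labels do not say that replicates came from separate animals, so a p-value covers only the spread among libraries as sampled, and some of that may be technical.

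Cells make cholesterol from acetyl-CoA through the mevalonate pathway, whose isoprenoid products are joined to squalene, closed to lanosterol and trimmed to cholesterol. When membrane sterol is low, the carrier SCAP brings SREBP precursors to the Golgi for cleavage, and the released factors switch on the synthesis genes, whereas INSIG proteins hold SCAP in the endoplasmic reticulum when sterol is high. Surplus cholesterol is esterified, or exported by ABC transporters under the control of the liver X receptors (LXR). In the testis, Leydig cells use cholesterol to make testosterone, and developing germ cells also make sterols of this pathway.

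SREBP factors act at short promoter elements, often next to boxes for the factor NF-Y. Of the 33 genes, 27 had a promoter window in the RefSeq table (GRCm38.p6), which spans 250 bases before to 50 bases after a start site. The 6 others (Fdft1, Sqle, Fdps, Abcg1, Npc1 and Stard4) are named only. The 250 upstream bases are printed 5′ to 3′ on the gene's strand for Msmo1, Hmgcs1 and Lss, the enzymes of smallest adjusted p in the comparison averaged over both diets below, and for Insig1, the only regulator called there. Capitals mark matches to the SREBP element TCACNCCAC and to the NF-Y box CCAAT, read on either strand (ATTGG is the NF-Y box on the other strand). The windows lie at chr13:119690101-119690350 on the plus strand for Hmgcs1, chr8:64733579-64733828 on the minus strand for Msmo1, chr10:76531355-76531604 on the plus strand for Lss and chr5:28071162-28071411 on the plus strand for Insig1.
Hmgcs1: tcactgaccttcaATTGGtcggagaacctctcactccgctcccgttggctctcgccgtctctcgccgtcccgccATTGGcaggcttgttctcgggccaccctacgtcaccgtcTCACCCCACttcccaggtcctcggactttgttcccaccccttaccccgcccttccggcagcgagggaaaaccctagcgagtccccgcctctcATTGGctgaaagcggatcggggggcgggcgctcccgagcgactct
Msmo1: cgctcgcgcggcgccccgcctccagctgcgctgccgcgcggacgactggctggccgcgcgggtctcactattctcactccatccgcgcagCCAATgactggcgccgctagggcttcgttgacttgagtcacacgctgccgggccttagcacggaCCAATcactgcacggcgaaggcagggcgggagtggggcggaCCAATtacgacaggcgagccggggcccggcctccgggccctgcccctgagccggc
Lss: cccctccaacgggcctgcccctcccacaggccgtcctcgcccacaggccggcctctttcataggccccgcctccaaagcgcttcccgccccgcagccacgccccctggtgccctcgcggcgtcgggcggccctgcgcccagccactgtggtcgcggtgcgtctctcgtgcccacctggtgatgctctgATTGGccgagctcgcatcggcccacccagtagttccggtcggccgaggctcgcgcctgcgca
Insig1: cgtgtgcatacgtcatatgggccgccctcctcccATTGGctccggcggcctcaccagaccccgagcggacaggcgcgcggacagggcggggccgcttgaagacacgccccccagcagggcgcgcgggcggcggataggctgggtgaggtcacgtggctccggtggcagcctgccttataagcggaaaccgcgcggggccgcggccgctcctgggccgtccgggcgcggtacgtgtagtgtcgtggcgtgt

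The printed Hmgcs1 bases held 3 NF-Y boxes and 1 SREBP element, TCACCCCAC, which starts 137 bases before the start site, and a further NF-Y box lay 11 bases after the start site. The Msmo1 window held 3 NF-Y boxes, and those of Lss and Insig1 held 1 each. Across the 27 genes with a window, 22 had an NF-Y box, among them 16 of 17 enzymes, beside 43.3% of the 10305 tested genes with a window and 41.1% of all genes with one. Only Hmgcs1 had a match to the SREBP element as spelled here, which 1.34% of tested genes had. The Sp1 box GGGCGG, searched on both strands, was present in 23 of 27 genes and in 64% of tested genes, and the E-box (CACGTG, its own reverse complement) in 6 of 27 and in 11.3%. These matches describe letters in the window and are not binding sites.

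Values are taken to be FPKM, a read count scaled by transcript length and library size. This unit is inferred, since the header of the deposited table does not state it. They summed to 588159.7 to 637076.8 per library, with 12996 to 13221 genes at 1 FPKM or more. The absolute depth is unknown, and relative depths estimated from the steps between low values lay between 0.897 and 1.09. Testis markers were present throughout: summed over the lists, Leydig cell genes measured 2684 to 5054 FPKM, Sertoli cell genes 745 to 847, and elongating spermatid genes 44494 to 65426. Libraries control 3 and HFD-conFMT 2 stood apart in genes of the epididymis, the duct beside the testis. These summed to 205 and 134 FPKM there and to 1.97 to 4.46 in the 12 libraries of the other 4 groups. The mean log2 deviation of the tested epididymis genes from their overall means was 3.24 and 2.99 in those libraries. HFD-conFMT 3 (0.938) and control 1 (0.231) followed, and the deviation was negative in all the rest. Adipocyte genes summed to 42.4 to 48.5 FPKM in HFD-conFMT and to 18.1 to 26.5 in HFD.

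Values entered one limma model of the 6 group means as log2(FPKM + 1), restricted to genes that averaged 1 FPKM or more, with Benjamini-Hochberg adjustment over all 13105 genes and a threshold of 0.05. Log2 fold changes are on this scale and understate changes in genes of low level. Of the 33 genes, 32 were tested. Abcg1, an efflux transporter, was not, with a mean of 0.311 FPKM and single values between 0.17 and 0.44.

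Per unit of transcript length, the most abundant member was Fdft1 (squalene synthase, the first step committed to sterols) at a mean of 131 FPKM over the 18 libraries. It was followed by Fdps at 62.8, Sqle at 42.8, Cyp51 at 30.1 and Hmgcs1 at 28.3 FPKM. Among the other enzymes, means ran from 16.8 FPKM for Msmo1 to 1.31 for Hsd17b7. Of the SREBP genes, Srebf2 measured 7.12 FPKM and Srebf1 2.81. Insig2 (16.6 FPKM) was more abundant than Insig1 (5.74), and Nr1h2, which encodes LXR beta, was more abundant (21.4) than Nr1h3, which encodes LXR alpha (5.87). Exons of 13 members share bases with another annotated gene, and the strand setting of the counting is not given in the sources used here. On the same strand, Fdps shares 1124 exon bases with Gm43738 and Tm7sf2 532 with Vps51. On the opposite strand, Fdft1 shares 774 with Ctsb and Lbr 440 with Dnah14. The levels of these pairs are therefore uncertain, and those of the other overlapping members may be.

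With AOS averaged over both diets, a group of cholesterol synthesis genes fell in testis, although 0 of them passed the adjusted threshold in either diet taken alone. In this contrast of AOS averaged over both diets, 10 of 32 members fell and 0 rose. Of all 13105 genes tested, 176 fell (1.34%) and 112 rose. The 10 were Msmo1, Sc5d, Insig1, Dhcr7, Acat2, Tm7sf2, Mvd, Lss, Hmgcs1 and Nsdhl, with log2 fold changes between -0.57 and -0.22 and adjusted p (limma) between 0.0176 and 0.0429. Of the 20 enzymes, 19 were lower, beside 7805 of 13105 genes, and 9 passed the test, with a median log2 fold change of -0.19 beside -0.021 over all genes. By role, 3 of 8 mevalonate and isoprenoid genes, 6 of 12 genes from squalene to cholesterol, 1 of 5 SREBP regulators, 0 of 4 transport and storage genes and 0 of 3 tested efflux genes passed. In whole tissue, fewer cells of a type and less RNA per cell cannot be told apart.

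These calls depend on the libraries and on the spread used. All of the 10 genes that an alternative tested remained lower in it. However, 0 of them passed in a fit of only the 4 groups compared (adjusted p 0.0779 to 0.12), and 0 without library AOS 1 (0.0553 to 0.112). Without HFD 2, Msmo1 alone passed. Hmgcs1 and Msmo1 alone passed without control 3, without AOS 3, and without both epididymal libraries, control 3 and HFD-conFMT 2 (adjusted p of the 10 genes 0.0409 to 0.11). Without control 2, 5 of them passed, and without control 1, 6. With values adjusted for transcript length and GC content, Mvd and Msmo1 alone passed.

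**Figure D1:**
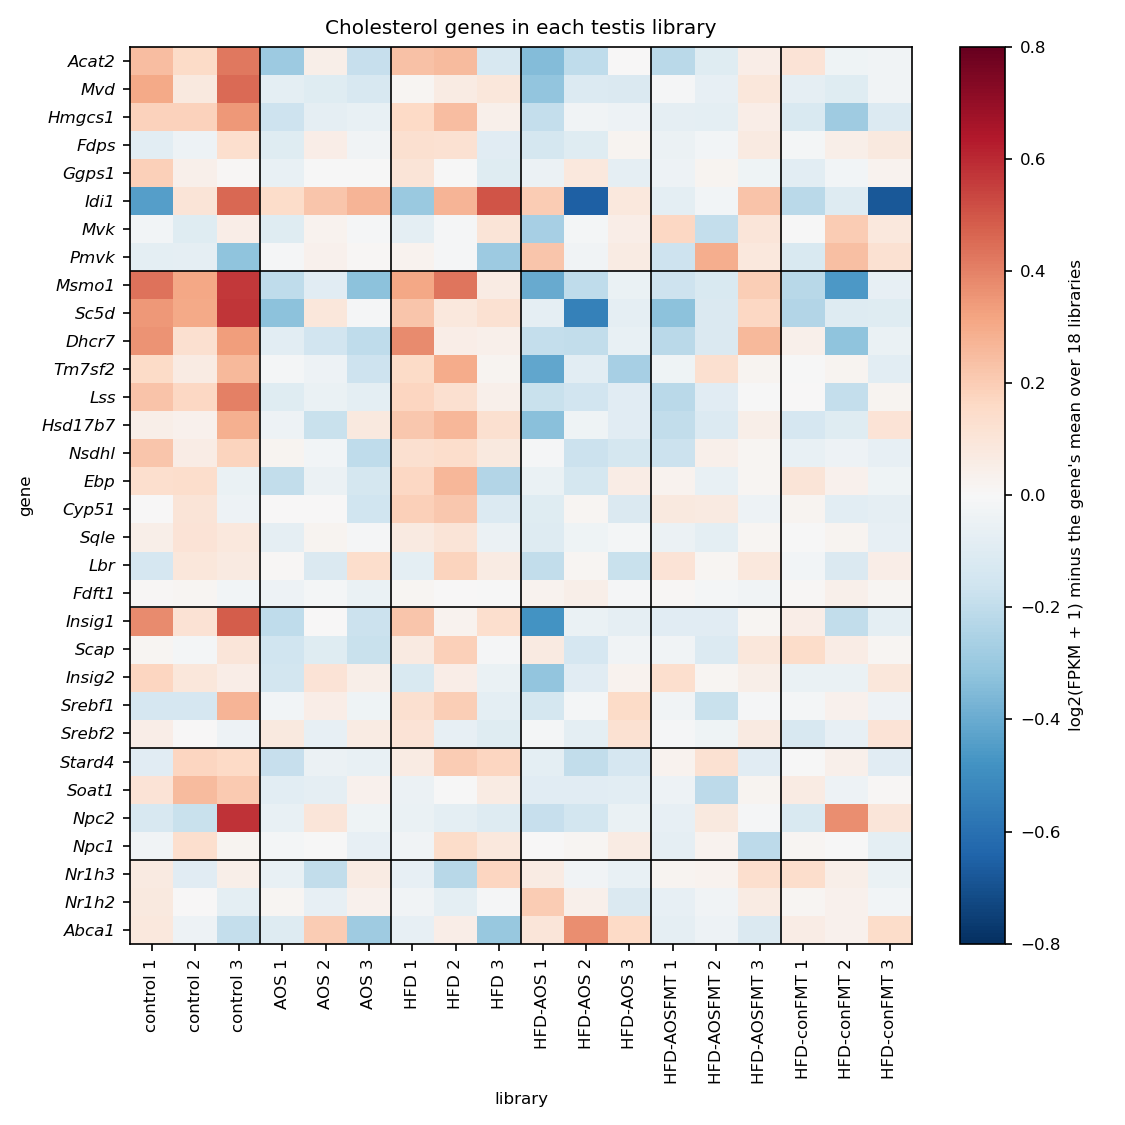
Heat map of the 32 tested cholesterol genes (rows, grouped by role) in the 18 libraries (columns, grouped by condition); colour is log2(FPKM + 1) minus the gene's mean over the libraries. Most synthesis enzymes are above their mean in the control and HFD libraries and below it in AOS and HFD-AOS, whereas Fdft1 and Srebf2 stay pale throughout.

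At the head of the pathway, Hmgcs1 makes HMG-CoA, the precursor of mevalonate. Its values were 32.2, 32.1 and 36.1 FPKM in control and 24.9, 26.7 and 27 with AOS. On the diet they were 31.6, 33.6 and 29 FPKM in HFD and 24.6, 27.6 and 27.3 in HFD-AOS. In each diet every library with AOS lay below every library without it. The means were 21.6% lower without the diet (log2 fold change -0.34 ± 0.0693 SE, unadjusted p = 0.000181) and 15.6% lower with it (-0.24 ± 0.0693, 0.00374). Averaged, the log2 fold change was -0.29 (95% confidence interval -0.39 to -0.18) with an adjusted p of 0.0181 in limma.

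Acat2, the cytosolic thiolase that joins 2 acetyl-CoA, measured 8.7, 8.12 and 9.96 FPKM in control and 5.68, 7.47 and 6.22 with AOS. In HFD it measured 8.61, 8.76 and 6.5 and in HFD-AOS 5.45, 6.1 and 7.2. The groups were separate without the diet and overlapped on it, where HFD 3 lay below HFD-AOS 3. The averaged log2 fold change was -0.36 ± 0.0844 (adjusted p = 0.0421). Mvd, the decarboxylase that forms isopentenyl diphosphate, measured 3.09, 2.49 and 3.53 FPKM in control, 2.14, 2.09 and 2.03 with AOS, 2.34, 2.47 and 2.53 in HFD, and 1.66, 2.07 and 2.06 in HFD-AOS. Neither pair of groups overlapped, and the averaged log2 fold change was -0.31 ± 0.0606 (adjusted p = 0.0246).

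The other 5 genes of this stretch did not pass. Fdps, which makes farnesyl diphosphate, had an averaged log2 fold change of -0.07 (95% interval -0.18 to 0.03), Ggps1, which makes geranylgeranyl diphosphate, -0.06 (-0.16 to 0.04), and mevalonate kinase (Mvk) -0.04 (-0.19 to 0.10). Pmvk, the next kinase, was the only enzyme with a positive value, 0.17 (-0.01 to 0.35). Idi1, the isopentenyl diphosphate isomerase, varied most within groups: 10.7, 16 and 20.8 FPKM in control, 16.6, 17.5 and 18.2 with AOS, 11.9, 18.2 and 21.5 in HFD, and 17.3, 9.09 and 15.8 in HFD-AOS. Its averaged interval, -0.43 to 0.32, covers both directions.

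Past lanosterol, the largest change was that of Msmo1, the oxidase that starts removal of the methyl groups left after the lanosterol demethylase Cyp51. It measured 22.5, 20.6 and 24.7 FPKM in control and 14.1, 15.3 and 12.8 with AOS. On the diet it measured 20.5, 22.4 and 17.1 FPKM in HFD and 12.1, 14.1 and 15.8 in HFD-AOS. The groups did not overlap in either diet. The means were 37.7% lower without the diet (log2 fold change -0.64 ± 0.127, unadjusted p = 0.00012) and 30.1% lower with it (-0.49 ± 0.127, 0.00152). The averaged value of -0.57 (95% interval -0.76 to -0.38) had an adjusted p of 0.0176. Nsdhl, which works with Msmo1 in the same demethylation, measured 15.8, 14 and 15.3 FPKM in control, 13.6, 13.2 and 11.5 with AOS, 14.7, 14.9 and 14.2 in HFD, and 13.3, 11.8 and 12.1 in HFD-AOS. These groups were also separate, with a smaller averaged change of -0.22 ± 0.0491 (adjusted p = 0.0347).

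Lanosterol synthase (Lss), which closes the sterol rings, measured 3.91, 3.71 and 4.56 FPKM in control and 2.92, 3.05 and 2.97 with AOS. On the diet it measured 3.73, 3.58 and 3.32 in HFD and 2.71, 2.77 and 2.95 in HFD-AOS. All 6 libraries with AOS lay below all 6 without it. The averaged log2 fold change was -0.30 ± 0.0549 (adjusted p = 0.0232). Tm7sf2, a sterol reductase, measured 4.44, 4.14 and 4.88 FPKM in control, 3.84, 3.76 and 3.37 with AOS, 4.46, 5.02 and 3.98 in HFD, and 2.67, 3.62 and 3.07 in HFD-AOS. Its groups were separate in both diets, and the averaged value was -0.33 ± 0.0633 (adjusted p = 0.0244). Vps51, with which Tm7sf2 shares exon bases, had an averaged log2 fold change of 0.07 (adjusted p = 0.427).

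The last steps to cholesterol fell as well. Sc5d, the sterol desaturase, measured 8.64, 8.32 and 10.2 FPKM in control, 5.02, 7.05 and 6.52 with AOS, 7.83, 7.02 and 7.25 in HFD, and 6.19, 4.2 and 6.19 in HFD-AOS. Dhcr7, the reductase that makes cholesterol from its immediate precursor, measured 11.7, 9.81 and 11.5 FPKM in control, 8.3, 7.87 and 7.58 with AOS, 11.8, 9.24 and 9.15 in HFD, and 7.64, 7.62 and 8.46 in HFD-AOS. For both genes the groups with and without AOS were separate in each diet. The averaged log2 fold changes were -0.43 ± 0.0995 for Sc5d (adjusted p = 0.0412) and -0.37 ± 0.0867 for Dhcr7 (adjusted p = 0.0429).

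Between squalene and cholesterol 6 genes did not pass. Hsd17b7, the sterol ketoreductase, measured 1.37, 1.35 and 1.79 FPKM in control, 1.23, 1.03 and 1.42 with AOS, 1.66, 1.76 and 1.51 in HFD, and 0.82, 1.24 and 1.15 in HFD-AOS. Its groups were separate only on the diet (averaged -0.26 ± 0.0745, adjusted p = 0.0758). Sqle (squalene epoxidase) had an averaged value of -0.10 (adjusted p = 0.109), Cyp51 (lanosterol demethylase) -0.12 (0.239), the isomerase Ebp -0.16 (0.241) and Lbr, a sterol reductase of the nuclear envelope, -0.09 (0.463). Fdft1 stayed within 127 to 136 FPKM in all 18 libraries, with an averaged value of -0.01 (95% interval -0.05 to 0.03). Its opposite-strand neighbour Ctsb had -0.17 (adjusted p = 0.0476).

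**Figure D2:**
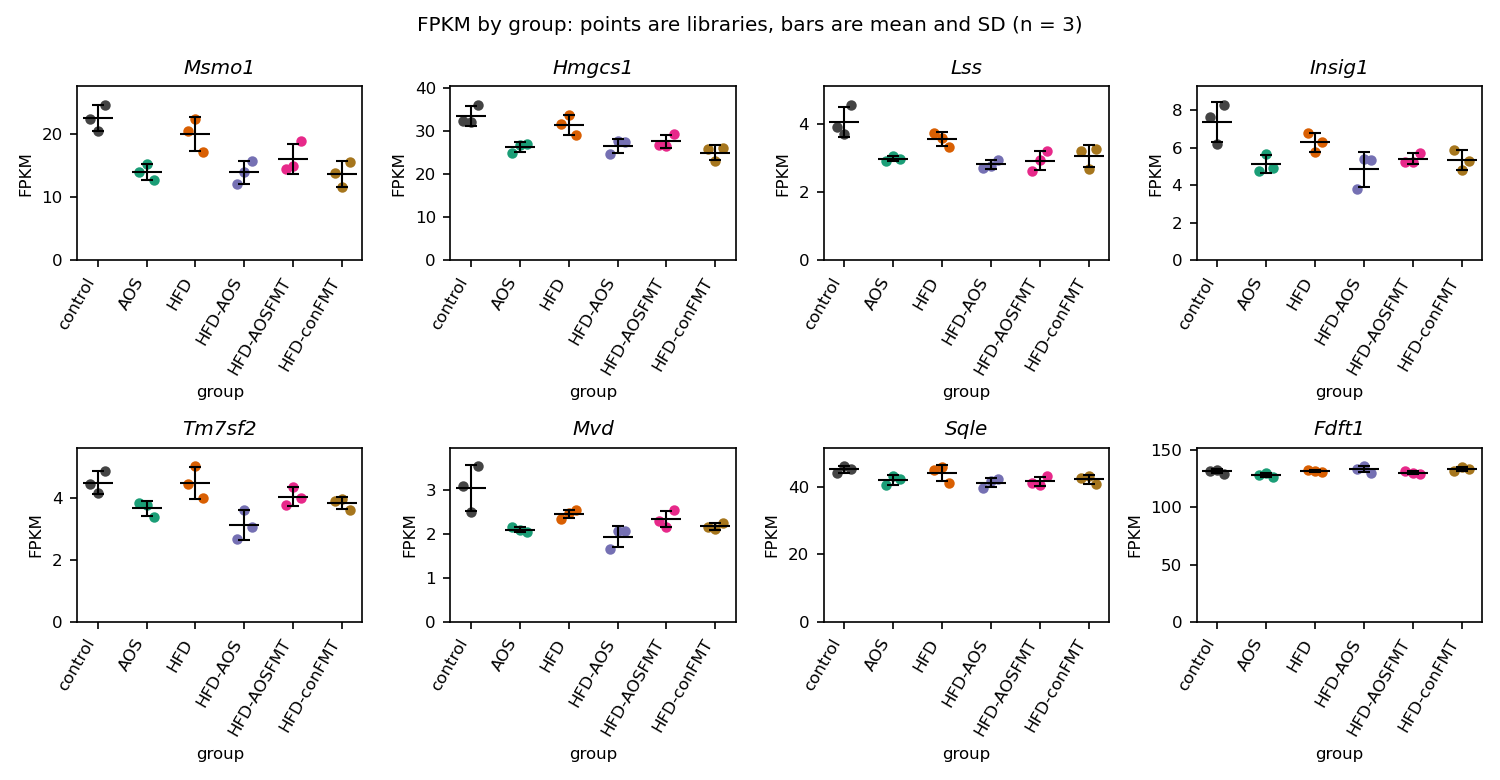
FPKM (vertical axes, each from 0) of 8 synthesis and regulator genes by group; points are the 3 libraries of a group and bars the mean and SD. Msmo1, Hmgcs1, Lss, Insig1, Tm7sf2 and Mvd are lower in AOS than in control and in HFD-AOS than in HFD, while Fdft1 is level across the 6 groups.

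Level and change are given side by side. For the 5 most abundant enzymes (28.3 to 131 FPKM) averaged log2 fold changes ran from -0.29 for Hmgcs1 to -0.01 for Fdft1, with a median of -0.10. For the other 15 (1.31 to 16.8 FPKM) they ran from -0.57 to 0.17, with a median of -0.26. The 2 sets were not tested against each other.

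**Figure D3:**
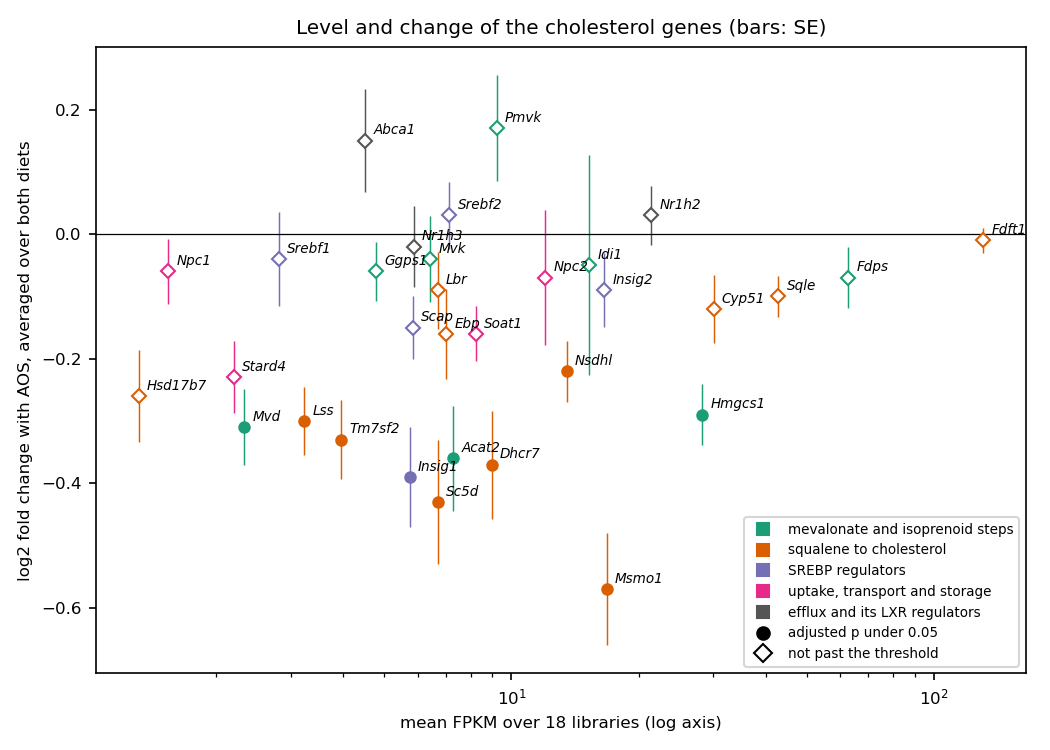
Averaged log2 fold change with AOS (vertical axis, bars are SE) against mean FPKM over the 18 libraries (log axis) for the 32 tested genes, coloured by role; filled circles passed the adjusted threshold. The 10 filled genes lie between 2.33 and 28.3 FPKM, and Fdft1, at 131 FPKM, lies near 0.

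Among the SREBP regulators, Insig1, which retains SCAP and is itself an SREBP target, fell. It measured 7.65, 6.22 and 8.31 FPKM in control, 4.78, 5.68 and 4.93 with AOS, 6.79, 5.8 and 6.32 in HFD, and 3.79, 5.43 and 5.34 in HFD-AOS. The groups were separate in each diet and the averaged log2 fold change was -0.39 ± 0.0808 (adjusted p = 0.0286). Insig2, its homologue, measured 18.8, 17.7 and 17.2 FPKM in control, 14.8, 18 and 17.1 with AOS, 15.1, 17.2 and 15.9 in HFD, and 13.2, 15.5 and 16.9 in HFD-AOS. Those groups overlapped in both diets (averaged -0.09, 95% interval -0.22 to 0.03). The difference between the 2 INSIG genes was not tested.

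The SREBP genes themselves did not pass. Srebf2, the factor chiefly tied to cholesterol synthesis, measured 7.41, 7.11 and 6.87 FPKM in control, 7.55, 6.74 and 7.48 with AOS, 7.74, 6.74 and 6.57 in HFD, and 7.02, 6.67 and 7.84 in HFD-AOS. Srebf1, chiefly tied to fatty acid synthesis, measured 2.46, 2.46 and 3.58 FPKM in control, 2.74, 2.94 and 2.7 with AOS, 3.15, 3.35 and 2.59 in HFD, and 2.44, 2.76 and 3.22 in HFD-AOS. Both sets of values overlapped between groups, with averaged log2 fold changes of 0.03 (95% interval -0.09 to 0.14) for Srebf2 and -0.04 (-0.20 to 0.12) for Srebf1. Scap had -0.15 (-0.25 to -0.04, adjusted p = 0.12).

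Of the transport and storage genes, all 4 had negative averaged values and 0 passed. Stard4, a soluble sterol carrier, measured 2, 2.6 and 2.56 FPKM in control, 1.81, 2.09 and 2.06 with AOS, 2.34, 2.68 and 2.59 in HFD, and 2.03, 1.79 and 1.91 in HFD-AOS. It was separate only on the diet (averaged -0.23 ± 0.058, adjusted p = 0.0527). Soat1, which esterifies cholesterol, measured 8.91, 9.98 and 9.64 FPKM in control, 7.67, 7.73 and 8.4 with AOS, 7.89, 8.16 and 8.63 in HFD, and 7.64, 7.63 and 7.67 in HFD-AOS. The control libraries were above all 9 others here (averaged -0.16 ± 0.0444, adjusted p = 0.0663). Npc1 and Npc2, which pass cholesterol out of lysosomes, had averaged values of -0.06 and -0.07. Npc2 reached 18.2 FPKM in control 3 and 15.6 in HFD-conFMT 2, the libraries highest in epididymal transcripts, and 10.3 to 12.8 in the other 16. The protein is also known as a secretory product of the epididymis, and the part of such tissue in these values was not tested.

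No efflux gene passed the adjusted threshold in either direction. Of the 3 tested, 3 were lower in AOS than in control (median log2 fold change -0.015) and 0 in HFD-AOS than in HFD (0.079). Beside these, 7839 and 7348 of 13105 genes were lower, with medians of -0.029 and -0.017. The difference of the efflux genes from the enzymes was not tested. Abca1, which loads cholesterol onto apolipoprotein acceptors, measured 4.81, 4.33 and 3.8 FPKM in control, 4.09, 5.31 and 3.49 with AOS, 4.22, 4.67 and 3.44 in HFD, and 4.85, 6.09 and 5.11 in HFD-AOS. It was 30.2% higher in HFD-AOS than in HFD, with no overlap (log2 fold change 0.32 ± 0.117, unadjusted p = 0.0159, adjusted 0.31), and overlapped without the diet (-0.01 ± 0.117). In the FMT groups Abca1 measured 4.2, 4.33 and 4.04 FPKM (HFD-AOSFMT) and 4.7, 4.6 and 5.05 (HFD-conFMT). Against HFD, HFD-conFMT was 16.4% higher with overlap (0.19, 95% interval -0.06 to 0.43). HFD-AOSFMT was 1.95% higher, also with overlap (0.03, -0.22 to 0.28). Abcg1, listed at 0.17, 0.4 and 0.2 FPKM in control, 0.32, 0.29 and 0.41 with AOS, 0.27, 0.29 and 0.28 in HFD, and 0.44, 0.4 and 0.35 in HFD-AOS, was too low to test. Nr1h2 measured 22.6, 21.4 and 20.2 FPKM in control, 21.6, 20.3 and 21.9 with AOS, 20.9, 20.2 and 21.2 in HFD, and 24.7, 22 and 19.6 in HFD-AOS. Nr1h3 measured 6.22, 5.43 and 6.07 FPKM in control, 5.59, 4.97 and 6.16 with AOS, 5.54, 4.87 and 6.71 in HFD, and 6.18, 5.72 and 5.57 in HFD-AOS. Both LXR genes overlapped in each diet, with averaged values of 0.03 (95% interval -0.07 to 0.13) and -0.02 (-0.16 to 0.12).

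Taken one diet at a time, no cholesterol gene passed the adjusted threshold. AOS against control called 0 of 32 members, beside 0.0229% of all genes. At an unadjusted p under 0.05, 14 of 32 were lower, among them 10 of 20 enzymes, beside 10.2% of all genes, and 0 were higher, beside 5.58%. In 14 of 32 members every AOS library lay below every control library, beside 15.2% of all genes. HFD-AOS against HFD also called 0 of 32, beside 0% of all genes. Unadjusted, 13 of 32 were lower, among them 11 of 20 enzymes, beside 7.81%, and 1, Abca1, was higher, beside 4.89%. In 12 of 32 all HFD-AOS libraries lay below all HFD libraries, beside 8.49%. The median log2 fold change of the 20 enzymes was -0.19 without the diet and -0.23 with it, beside -0.029 and -0.017 over all genes. These 2 comparisons share no library, although they share the model's estimate of the spread. In both, 11 of 32 members were lower at the unadjusted p (the 10 above and Stard4), beside 2.05% of all genes.

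The size of the AOS difference was also compared directly between the diets. For the difference of the 2 effects, 0 of 32 members had an unadjusted p under 0.05, beside 6.86% of all genes, and the median over the enzymes was 0.031 (-0.0269 without HFD 3). The smallest p was that of Abca1, with a difference of 0.33 (95% interval -0.02 to 0.68, unadjusted p = 0.0633), followed by Soat1 at 0.14 (-0.05 to 0.33) and Tm7sf2 at -0.18 (-0.45 to 0.09). For Msmo1 the interval of the difference ran from -0.22 to 0.54 and for Hmgcs1 from -0.11 to 0.31, so differences of that size could not be resolved with 3 libraries a group.

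**Figure D4:**
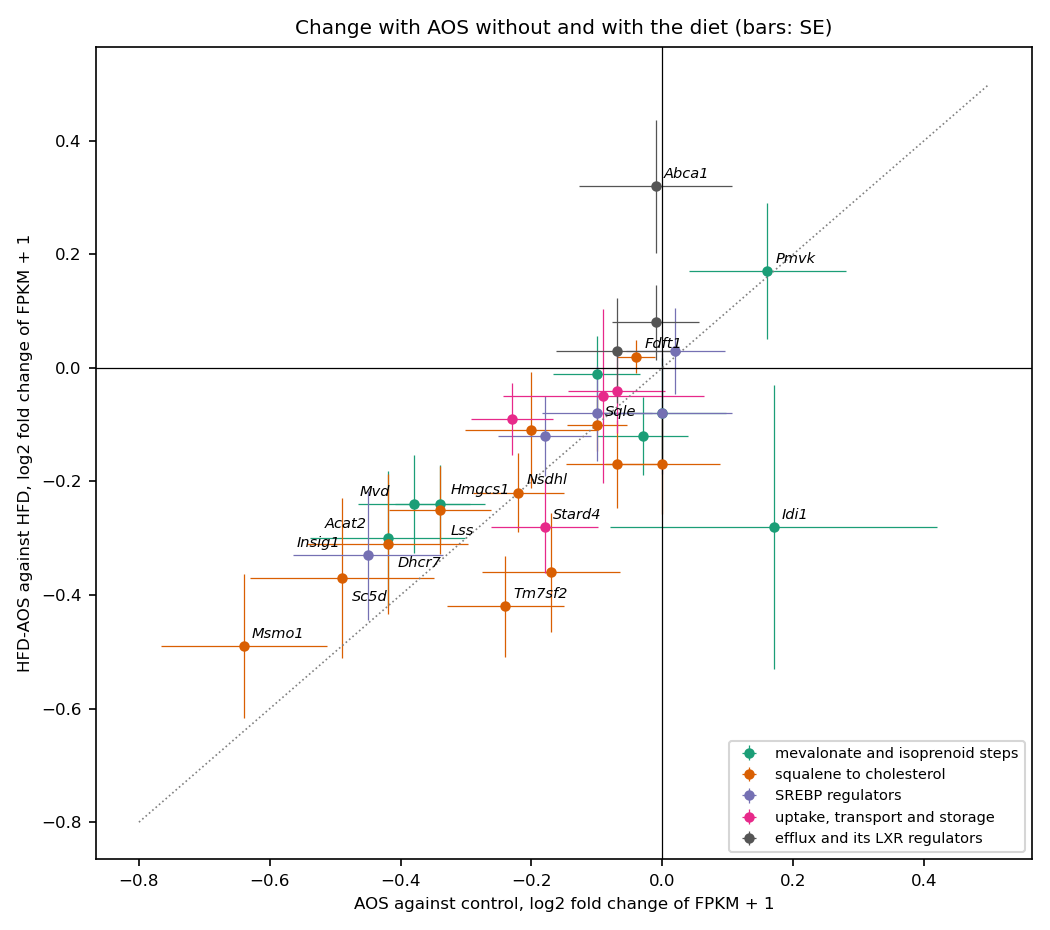
Log2 fold change of AOS against control (horizontal axis) and of HFD-AOS against HFD (vertical axis) for the 32 tested genes, with SE bars, coloured by role; the dotted line marks equal change. The 10 genes called in the averaged contrast lie at or below -0.22 on both axes, Abca1 is at -0.01 and 0.32, and Idi1 has the widest bars.

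Markers of other cell types also differed between these groups. Of 12 Leydig cell genes, 12 were lower in AOS than in control (median log2 fold change -0.28) and 8 in HFD-AOS than in HFD (-0.13). Of 8 elongating spermatid genes, 0 and 1 were lower (medians 0.20 and 0.13). Of 12 Sertoli genes, 11 were tested, with medians of 0.039 and 0.029. Of all 13105 genes, 7839 were lower in AOS than in control and 7348 in HFD-AOS than in HFD. Other lists differed in this. For spermatogonia 2 of 7 tested genes were lower without the diet and 3 on it, and for round spermatids 3 of 8 and 3. For spermatocytes they were 5 of 8 and 5, and for endothelium 2 of 4 tested and 3. For adipocytes they were 3 of 4 tested and 0, and for epididymis 3 of 3 tested and 2. For macrophages 9 of 10 genes were lower without the diet and 3 on it (medians -0.10 and 0.077), for peritubular cells 6 of 6 and 3 (-0.10 and -0.01), and for blood 3 of 3 tested and 1 (-0.58 and 0.11). Per library, the mean deviation of the Leydig list from its overall mean lay between 0.058 and 0.173 in control, -0.269 and 0.063 in AOS, -0.067 and 0.096 in HFD, and -0.158 and -0.001 in HFD-AOS. The part of these cell types in the fall of the cholesterol genes was not tested.

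Related pathways were described from lists of other genes. In the averaged contrast 176 of 13105 genes fell, or 1.34%, 7805 had negative values and the median was -0.021. Beside these, 13 of 14 fatty acid and lipogenic SREBP targets were lower and 5 fell, with a median log2 fold change of -0.20. They include Fads1 (-0.43, adjusted p = 0.0302) and Fads2 (-0.37, 0.0347), the desaturases of polyunsaturated fatty acids, and Me1 (-0.18, 0.0181), the malic enzyme that supplies NADPH. Of 14 genes for SREBP processing, sterol sensing and enzyme degradation, 0 passed; the smallest p was that of Erlin2, at -0.13 (adjusted p = 0.0527). Of 22 genes for sterol transport, esters, oxysterols and lipoprotein receptors 14 were tested and 2 fell: Star (-0.52, adjusted p = 0.0345), which delivers cholesterol to mitochondria for steroid synthesis and is also on the Leydig list, and Osbpl2 (-0.17, 0.0317), an oxysterol-binding protein relative. Of 12 genes of the isoprenoid branch, for ubiquinone, dolichol and prenylation, 0 passed, with a median of -0.072.

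Across the 18 libraries the enzymes varied together to different degrees. The Pearson correlation with the mean of the other enzymes (standardized log2 values) was highest for Msmo1 (0.915), Acat2 (0.909), Hmgcs1 and Lss (both 0.867) and Sqle (0.851), and lowest for Pmvk (-0.441) and Fdft1 (-0.114). Insig1 had 0.832 with the mean of all 20, Srebf1 0.469 and Srebf2 0.0335. Outside the 33 genes, those most like the enzyme mean were Elovl5 (0.873), Fam208a (0.868), Hspa8 (0.86), Ttpa (0.858), Rbbp7 (0.853), Ibtk (0.852), Son (0.851), Zfp292 (0.845), Cpt1a (0.84) and Scd2 (0.837). A correlation of at least 0.8 was found for 39 such genes, or 0.298%, and the median was 0.103. These are descriptions over libraries that also share depth and tissue makeup. With the group means removed, the genes named outside the 33 ran from 0.387 (Son) to 0.856 (Rbbp7), with Elovl5 at 0.745 and Cpt1a at 0.807. Among the members, Srebf1 then had 0.747, Insig1 0.535 and Srebf2 0.228. Of the enzymes, Acat2 had 0.884, Fdps 0.866, Msmo1 0.842, Sc5d 0.306 and Nsdhl 0.12.

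High fat diet alone changed none of these genes past the adjusted threshold. HFD against control called 0 of 32 members, beside 0% of all genes. At the unadjusted p, 2 of 32 (Soat1 and Mvd) were lower, beside 3.84%, and 0 higher, beside 2.91%. Soat1 averaged 8.23 ± 0.374 FPKM in HFD and 9.51 ± 0.547 in control (SD, n = 3). Its log2 fold change was -0.19 (adjusted p = 0.648 in limma), and that of Mvd was -0.22 (adjusted p = 0.691). Lss followed at -0.15 (95% interval -0.32 to 0.01). The enzyme median was -0.024 (-0.0472 without HFD 1 and -0.0669 without HFD 2), beside -0.011 over all genes. Intervals still reach sizable changes, such as -0.44 to 0.10 for Msmo1 and -0.56 to 0.04 for Sc5d. This comparison uses the same control libraries as AOS against control.

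The FMT groups were set against the same HFD libraries as HFD-AOS, so the 3 sets of values are not independent. In HFD-AOSFMT, Hmgcs1 measured 26.7, 26.6 and 29.3 FPKM and in HFD-conFMT 25.8, 22.9 and 26.1. Msmo1 measured 14.5, 15 and 18.9 in HFD-AOSFMT and 13.9, 11.6 and 15.6 in HFD-conFMT. Against HFD (31.6, 33.6 and 29 for Hmgcs1 and 20.5, 22.4 and 17.1 for Msmo1), the HFD-conFMT values of both genes were all lower, and 1 HFD-AOSFMT library overlapped for each gene.

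HFD-AOSFMT against HFD called 0 of 32 members, beside 0.0229% of all genes. Unadjusted, 5 of 32 were lower, all enzymes, beside 4.59%, and 0 higher, beside 5.23%. They were Lss (2.62, 2.95 and 3.19 FPKM, log2 fold change -0.21, unadjusted p = 0.0142), Hsd17b7 (1, 1.13 and 1.37 FPKM, -0.29, 0.0147), Hmgcs1 (-0.18, 0.0181), Msmo1 (-0.30, 0.0329) and Nsdhl (-0.16, 0.0387). Only Lss, Nsdhl and Hsd17b7 of these had no overlap with HFD. With Insig1, whose unadjusted p was 0.128 in limma, 4 of 32 members lay wholly below HFD, beside 1164 of 13105 genes. The enzyme median was -0.099, beside -0.0061 over all genes, and moved to -0.17 without HFD 3 and to -0.0499 without HFD 2.

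HFD-conFMT against HFD likewise called 0 of 32, beside 0% of all genes. Unadjusted, 6 of 32 were lower, beside 5.26%, and 0 higher, beside 7%. Hmgcs1 was 20.7% lower (-0.32 ± 0.0693, unadjusted p = 0.000285, adjusted 0.124) and Msmo1 31.6% lower (-0.52 ± 0.127, 0.000922, adjusted 0.166). Nsdhl (12.8, 13 and 12.8 FPKM, -0.17), Hsd17b7 (-0.25), Dhcr7 (-0.27) and Lss (-0.17) made up the rest. In 9 of 32 members all HFD-conFMT libraries lay below all HFD libraries, beside 1288 of 13105 genes. The enzyme median was -0.13, beside -0.002 over all genes. Beside these values, Leydig genes were lower in 6 of 12 for HFD-AOSFMT and 5 of 12 for HFD-conFMT, with medians of -0.0067 and 0.018. Of all 13105 genes, 6898 and 6655 were lower. Medians in the same order were 0.079 and 0.1 for elongating spermatids, -0.058 and -0.039 for round spermatids and 0.12 and 0.21 for macrophages. For blood they were 0.41 and 0.54, for peritubular cells -0.19 and 0.039, and for Sertoli cells -0.018 and -0.0021. Spermatogonia had 0.026 and 0.022, spermatocytes -0.012 and -0.064, and endothelium 0.016 and -0.034. Adipocyte genes had medians of 0.081 and 0.91, and the 3 tested epididymis genes 0.025 and 1.7. The part of these cell types and tissues was not tested.

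Set directly against each other, the 2 FMT groups differed in none of these genes at the unadjusted threshold. HFD-AOSFMT against HFD-conFMT called 0 of 32 members, beside 0.00763% of all genes, and at the unadjusted p 0 were lower, beside 1.87%, and 0 higher, beside 1.25%. The enzyme median was 0.01 (0.0706 without HFD-AOSFMT 1 and -0.0226 without HFD-AOSFMT 3), beside -0.0053 over all genes. The smallest p-values were those of Hmgcs1 (log2 fold change 0.14, 95% interval -0.01 to 0.29), Msmo1 (0.22, -0.05 to 0.49) and Idi1 (0.38, -0.16 to 0.91; 14, 14.6 and 17.6 FPKM against 12.7, 13.8 and 8.91). These intervals do not show that the groups were alike.

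**Figure D5:**
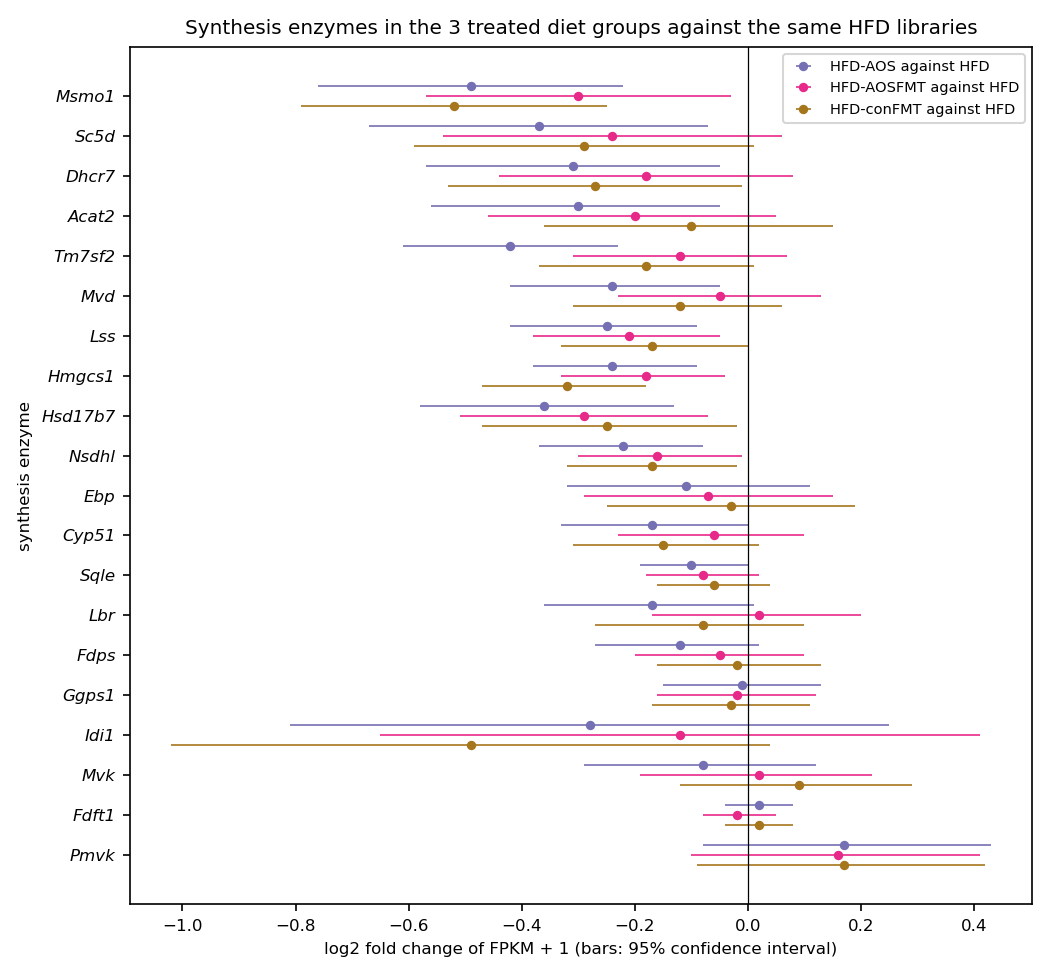
Log2 fold change of the 20 enzymes (rows) in HFD-AOS, HFD-AOSFMT and HFD-conFMT, each against the same 3 HFD libraries; points are estimates and bars 95% confidence intervals. Msmo1 is at -0.49, -0.30 and -0.52 and Hmgcs1 at -0.24, -0.18 and -0.32, while Fdft1 and Pmvk are not below 0 by more than 0.02 in any of the 3.

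Across all 6 groups at once, an F test in the same model called Hmgcs1 (adjusted p = 0.0466) and Msmo1 (0.0489), 2 of 32 members, beside 0.328% of all genes. Both calls were lost with no filter on low values (0.053 and 0.0655), with quantile normalization (0.0572 for both), with length and GC adjustment (0.116 for both), without both epididymal libraries (0.217 for both), with the numbered replicates as a block (0.0703 and 0.0771) and when any 1 library other than HFD-AOS 1 or HFD-AOS 3 was left out (0.0533 to 0.151). With pseudocounts of 0.1 and 0.5, Msmo1 was also lost (0.054 and 0.0505). The next smallest p-values were those of Lss, Mvd and Tm7sf2, whose values in the first 4 groups are given above. Lss measured 3.2, 2.68 and 3.26 FPKM in HFD-conFMT. Mvd measured 2.29, 2.16 and 2.53 FPKM in HFD-AOSFMT and 2.15, 2.1 and 2.24 in HFD-conFMT. Tm7sf2 measured 3.78, 4.36 and 3.98 FPKM in HFD-AOSFMT and 3.89, 3.97 and 3.62 in HFD-conFMT. For Mvd and Tm7sf2 the HFD-AOSFMT values overlapped those of HFD, and the HFD-conFMT values were all below them. The mean deviation of the 20 enzymes from their overall mean was 0.107, 0.095 and 0.21 in the control libraries and 0.112, 0.155 and 0.015 in HFD. It was -0.086, -0.02 and -0.063 in AOS, -0.146, -0.126 and -0.052 in HFD-AOS, -0.08, -0.03 and 0.07 in HFD-AOSFMT, and -0.051, -0.068 and -0.043 in HFD-conFMT. The AOS, HFD-AOS and HFD-conFMT libraries were all below 0 and the control and HFD libraries all above it, whereas 1 of the 3 HFD-AOSFMT libraries exceeded an HFD library.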

How the data were processed

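RNA was sequenced from 18 mouse testis samples, 3 in each of 6 groups named by the labels. Mapping was done with Bowtie 0.12.2 against mm10, per the submitters' processing notes. No counting tool, annotation or strand setting is given in the sources used here. What the authors deposited is a single table (20985 rows), read here as FPKM, that is reads scaled by transcript length and library size. The unit is inferred, since the header does not state it. Library sums differ (588159.7 to 637076.8), and the reading as FPKM was not tested further. Intervals for counting error would need the absolute depth, which is unknown. Symbols listed more than once (3, on 6 rows) were dropped.

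Values were analysed as log2(FPKM + 1) with limma 3.58.1 in R 4.3.3: genes averaging 1 FPKM or more, 1 model of 6 group means with a mean-variance trend, 12 residual degrees of freedom, two-sided p-values and Benjamini-Hochberg adjustment over 13105 genes. Tested on simulated data for AOS averaged over both diets, it recovered 99 of 100 genes with a contrast of size 1 (log2) and 91 of 100 with 0.5, among 13105. The simulation gave each gene independent noise and put the shift in the AOS group alone. Contrasts smaller than 0.5, as in all called members but Msmo1, were not simulated, so recovery there is unknown. Promoters came from RefSeq (GRCm38.p6) and exons from GENCODE on GRCm38, the assembly of mm10.

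The members, lists and tests were chosen with earlier results of these data known. Values in every library of the groups compared are given for the 10 members of smallest p in the averaged AOS contrast, 5 of the F test and 3 of each other comparison. For the SREBP, INSIG, LXR and ABC genes they are given in control, AOS, HFD and HFD-AOS, and for Abca1 also in the FMT groups. Alternatives were other pseudocounts, filters and scalings, array weights, a replicate block, fewer groups, leaving out libraries, and, added after seeing the data, an adjustment for transcript length and GC content. Figures were drawn with matplotlib 3.10.9.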

Additional observations from a re-analysis of the deposited data

How the results depend on the processing

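The enzyme medians stayed within 0.051 (log2), the pooled within-group SD, of the reported values under the alternatives that kept all libraries, and without both control 3 and HFD-conFMT 2, except with a filter of at least 5 FPKM, which tests fewer enzymes. There they were -0.102 for AOS against control, -0.174 for HFD-AOS against HFD and -0.119 for AOS averaged over both diets. Medians moved by more than that without HFD-AOS 1 for HFD-AOS, and without HFD-AOSFMT 1 for the FMT groups against each other. They also did so without HFD 3 for both FMT groups against HFD and for the difference of the AOS effects. Leaving out 1 library at a time gave medians of -0.0669 to -0.0184 for HFD against control, -0.191 to -0.161 for AOS against control, -0.25 to -0.177 for HFD-AOS, -0.17 to -0.0499 for HFD-AOSFMT and -0.196 to -0.1 for HFD-conFMT against HFD. For HFD-AOSFMT against HFD-conFMT they were -0.0226 to 0.0706, for AOS averaged -0.232 to -0.161, and for the difference of the AOS effects -0.0269 to 0.0633.

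Counts of all genes called were less stable, and the cause was not tested. For AOS averaged over both diets, 288 genes were called as reported, 134 with no filter on low values, 167 with array weights, 0 with only the groups compared, 21 without both control 3 and HFD-conFMT 2, 22 adjusted for length and GC, and 0 to 383 with 1 library left out. The F test called 43, against 12 with quantile normalization, 130 with array weights, 20 with the replicate block, 1 without both libraries, 5 adjusted for length and GC and 2 to 145 with 1 library left out. AOS against control called 3, against 0 with no filter, with quantile normalization, with only the groups compared and without both libraries, 5 with library medians centred or adjusted for length and GC, 240 with array weights and 0 to 44 with 1 library left out. HFD-AOSFMT against HFD called 3, against 5 with a mean of at least 5 FPKM, 26 with no filter, 7 with array weights, 1 with quantile normalization, centred medians, the replicate block, without both libraries or adjusted for length and GC, and 1 to 6 with 1 library left out. HFD-conFMT against HFD called 0, against 3 with no filter, 9 with array weights, 1 with only the groups compared or without both libraries, and 0 to 17 with 1 library left out. HFD-AOS against HFD called 0, against 2 with no filter and 0 to 4 with 1 library left out. HFD against control called 0, against 1 with only the groups compared, and HFD-AOSFMT against HFD-conFMT 1, against 16 with no filter.

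Of the 10 cholesterol genes called in the averaged contrast, 10 remained with pseudocounts of 0.1 and 0.5, 8 with array weights, 7 with a mean of at least 5 FPKM, which left 3 untested, 6 with no filter, quantile normalization or centred medians, and 2 (Mvd and Msmo1) adjusted for length and GC. Centring moved the median of all genes by at most 0.0409. Over all genes, same-numbered samples showed little shared deviation (correlations -0.102 to 0.0692). A pairing that touches only some genes would not show in this value, so it cannot decide whether the numbers pair samples. With the replicate block, 306 genes and 9 of the 10 were called, Acat2 having an adjusted p of 0.0503. Unknown depth limits low members such as Hsd17b7, Npc1 and Abcg1.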
